A study of Mus musculus with 95 samples.

Results

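The change in lung transcripts on exposure to Pneumocystis murina was compared between CD40L-KO mice at day 35 and C57BL/6 mice at day 34. The comparison took 24 of the 95 arrays, chosen by title from 4 of the 19 groups, and the 7970 autosomal genes among 8252 genes with a named probe set. For each gene, the exposure effect was the mean level of the exposed mice minus that of the unexposed mice, and the quantity tested was the CD40L-KO effect minus the C57BL/6 effect, all on the log2(intensity + 8) scale. A negative difference therefore means a lower effect in CD40L-KO.

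All mice were labelled female and 8 weeks old, and exposure meant sharing a cage with an infected seeder mouse. The C57BL/6 mice of day 34 came from experiment 2, with 10 exposed and 5 unexposed animals. The CD40L-KO mice lack CD40 ligand and came from experiment 4, with 4 animals exposed for 35 days and 5 unexposed animals that carry the label of day 14. In experiment 2 the exposed mice lived in 2 cages and the unexposed mice in 1 cage of 10 animals, and the labels do not tie a mouse to a cage. Strain, experiment, day of harvest, the day of the unexposed group and, by the sex-linked transcripts described below, sex thus differ together and cannot be told apart. All p-values here rest on the spread between mice of a group.

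Pneumocystis murina is a fungus that grows in the alveoli of mice, and mice with working CD4 T cells clear it. CD40 ligand is a surface protein of activated CD4 T cells that engages CD40 on B cells, macrophages and dendritic cells, and so licenses antibody class switching and the activation of antigen-presenting cells. Interferon-gamma from T cells and natural killer cells is the classical inducer of the chemokines Cxcl9 and Cxcl10, of the immunity-related GTPases and of the antigen-processing genes described below.

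The lung transcripts Sftpb, Sftpc and Scgb1a1 were bright on all 24 arrays, but Sftpd was not. Sftpc, the surfactant protein of type II alveolar cells, lay between 12.7 and 14.6, and Scgb1a1, the secretoglobin of club cells, between 12.3 and 14.3. Sftpb, also a surfactant protein, lay between 11.1 and 12.7. The surfactant protein transcript Sftpd read low, at 3.59 to 5.06 against a floor of 3. The Cd40lg probe set read 3.07 to 3.75 on all 24 arrays, near the floor of 3, so it does not check the strain label. All 9 CD40L-KO arrays showed the Y-linked Eif2s3y above Xist, in both the exposed and the unexposed group, although the label says female, and none of the 15 C57BL/6 arrays did. Transcripts of stratified squamous epithelium and skeletal muscle were high on some arrays. The squamous score, a mean over 9 keratin and cornified envelope genes, was above 6 on 4 of 5 unexposed and 3 of 10 exposed C57BL/6 arrays, on 1 of 5 unexposed CD40L-KO arrays and on 0 of 4 exposed ones. The 3′ to 5′ ratio of the Gapdh control probe sets, a sign of RNA quality, ran from 1.21 to 4.39 in unexposed and from 0.898 to 3.00 in exposed C57BL/6, and from 0.943 to 1.24 over both CD40L-KO groups. The unexposed C57BL/6 group holds the most of these arrays, and each main count below is also given without the arrays of squamous score above 6.

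**Figure D1:**
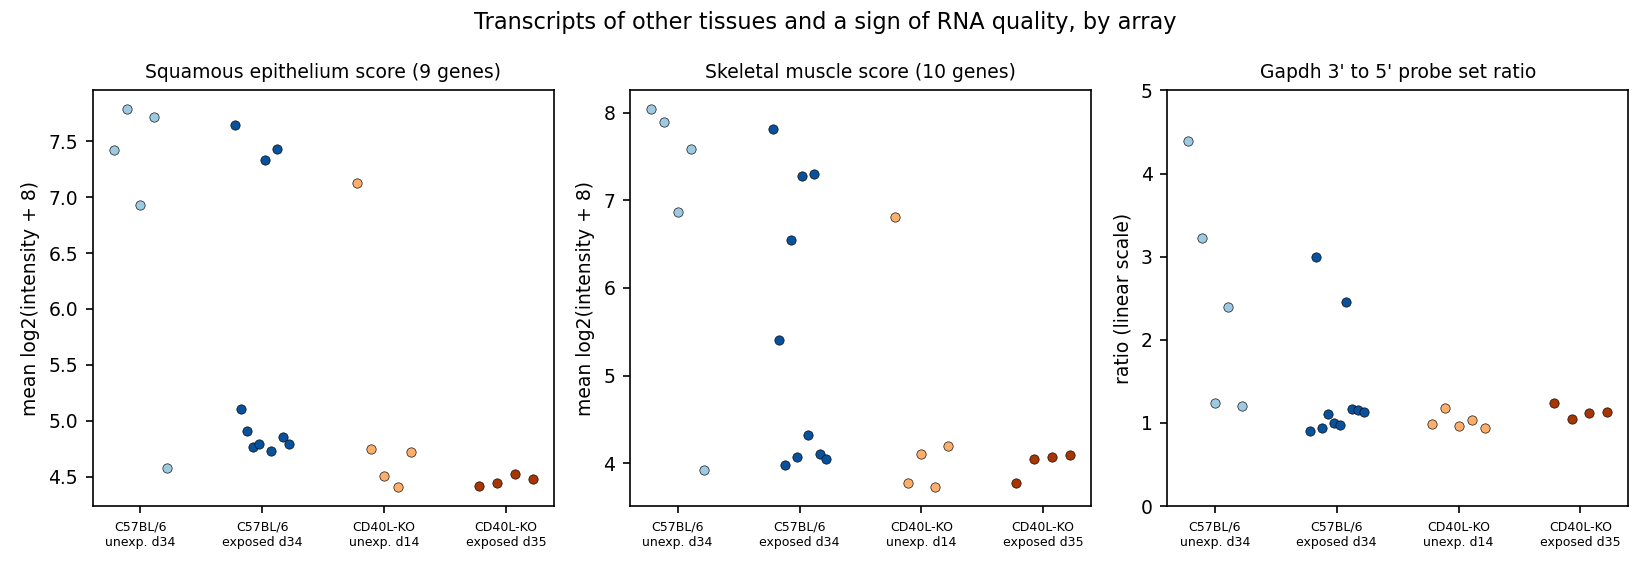
Squamous epithelium score, skeletal muscle score (both mean log2(intensity + 8)) and Gapdh 3′ to 5′ ratio (linear) for each of the 24 arrays, 1 point per array, by group. High squamous scores sit on 4 of 5 unexposed and 3 of 10 exposed C57BL/6 arrays and on 1 unexposed CD40L-KO array, and the highest Gapdh ratio is 4.39 in unexposed C57BL/6.

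Exposure changed the C57BL/6 lung at day 34 and left no single gene past the threshold in the CD40L-KO lung at day 35. In C57BL/6, 306 autosomal genes rose (3.84% of those tested) and 133 fell (1.67%), 439 in all (5.51%), at a limma adjusted p under 0.05. In CD40L-KO, 0 genes passed (0%), with the smallest adjusted p at 0.499, and 346 genes had an unadjusted p under 0.05, which is 4.34% of the genes tested. The median standard error of the effect was 0.156 in C57BL/6 and 0.191 in CD40L-KO. Without the arrays of squamous score above 6 the counts were 10 in C57BL/6, where 1 unexposed array is then left, and 0 in CD40L-KO; an array-weighted fit called 11 genes in CD40L-KO and 353 in C57BL/6.

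Tested directly, the 2 exposure effects differed for 47 autosomal genes (0.59%). Below, a gene that differed is one called in this test. Counts in gene lists stand against the shares of all genes: 0.59% that differed, 3.84% that rose and 1.67% that fell in C57BL/6. At such a share, a short list with 0 calls does not show equal effects. The effect was lower in CD40L-KO for 38 of them (0.477%) and higher for 9 (0.113%), and 914 genes had an unadjusted p under 0.05 (11.5%). All 38 lower-effect genes rose in C57BL/6, with a median effect of 1.33, while their CD40L-KO effects ran from −0.43 to 0.61 around a median of 0.015, 20 above and 18 below 0. The difference holds both effects within it, and it picked these genes. The count of rising genes, the CD40L-KO values near 0 and the overlap counts that follow thus add no separate evidence. The same holds for the 9 higher-effect genes. On 31 of the 38 genes every exposed C57BL/6 array lay above every unexposed one, a pattern found for 1.28% of all genes; in CD40L-KO the exposed arrays lay above all unexposed ones for 3 genes and below them for 2, against 2.11% and 1.73% of all genes.

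The count of 47 moved with the arrays used. It was 4 without the 8 arrays of squamous score above 6, an alternative chosen after seeing the data that leaves 1 unexposed C57BL/6 array, 19 with the Gapdh ratio as a covariate, and 52 with the squamous score as a covariate. The median difference of the 38 lower-effect genes was −1.19 with all arrays, −1.12 without those of squamous score above 6 and −1.16 with the Gapdh ratio as a covariate, and that of the 9 higher-effect genes was 1.05, 0.71 and 0.92. Leaving out 1 array in turn gave between 13 genes, without CD40L-KO exposed replicate 1, and 86 genes, without C57BL/6 unexposed replicate 5. A total of 12 genes passed whichever array was left out, and these were Birc5, Ccl8, Clca1, Cxcl9, Gbp2, Igtp, Mki67, Ntsr2, Ogn, Psmb8, Psmb9 and Saa3.

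Single genes moved by more than these medians. Without the arrays of squamous score above 6, 14 of the 47 differences were smaller by over 1.5 times and 44 were no longer called, with Clca1, Cxcl9 and Fntb as the exceptions. Among the 14, H2-Q4 went from −1.59 to −0.49, H2ax from −1.16 to −0.48, Mvd from −1.43 to −0.61, Ifi47 from −1.35 to −0.69 and H2-D4 from −1.46 to −0.74. Tap1 went from −1.21 to −0.65, Psme1 from −0.80 to −0.40, H2-Eb1 from −1.12 to −0.71, Cks1b from −1.54 to −0.96 and Mtx2 from −0.60 to −0.40. Clec3b went from 1.36 to 0.69 and Pde1c from 1.14 to 0.60, while Fntb was larger, at 2.27 against 1.34, and Cd6 and Egr1 are given with their values below. With the unexposed CD40L-KO mice of day 32 in place of those labelled day 14, 15 of the 47 were not called. These were Cd6, Chia1, Chil3, Egr1, Fntb, Gm9706, H2-Q4, Ifi47, Lsm4, Mtx2, Ntsr2, Psmb9, Psme1, Rrm2 and Vcam1. Igsf10 was called there in the opposite direction, at −0.80 (limma adjusted p 0.0148) against 0.91.

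**Figure D2:**
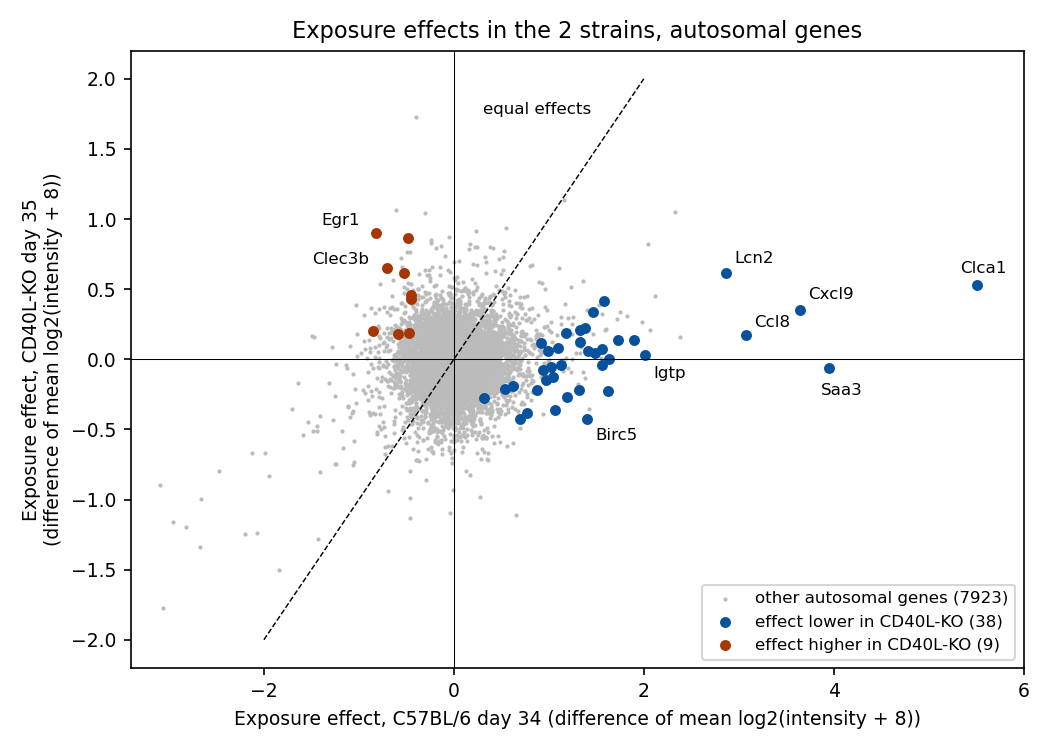
Exposure effect of each autosomal gene in C57BL/6 at day 34 (x axis) against CD40L-KO at day 35 (y axis), both as differences of mean log2(intensity + 8), 1 point per gene. The 38 genes with a lower effect in CD40L-KO (blue) lie right of 0 on the x axis and between −0.43 and 0.61 on the y axis; the 9 with a higher effect (red) lie left of 0 and above 0; the dashed line marks equal effects.

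Among the genes that differed, a large group belongs to the interferon-gamma response. A few of their promoters are shown because each holds a short motif of the kind that interferon-activated factors bind. The windows run from 250 bases before to 50 after the RefSeq transcription start (GRCm38.p6), written 5′ to 3′ on the strand of the gene. Capitals mark every match to GAAA followed after any 2 bases by GAAA on either strand (the GAAA repeat), a core of the interferon-stimulated response element bound by interferon regulatory factors, or to TTCNNNGAA, the palindromic core bound by STAT dimers.
Igtp (chr11.0:58199306-58199605, plus strand): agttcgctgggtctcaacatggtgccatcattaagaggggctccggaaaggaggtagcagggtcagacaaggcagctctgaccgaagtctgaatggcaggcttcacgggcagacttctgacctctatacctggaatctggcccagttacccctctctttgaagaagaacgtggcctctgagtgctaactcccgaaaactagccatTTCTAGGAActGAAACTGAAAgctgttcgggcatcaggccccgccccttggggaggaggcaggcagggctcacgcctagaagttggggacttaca
Gbp2 (chr3.0:142620413-142620712, plus strand): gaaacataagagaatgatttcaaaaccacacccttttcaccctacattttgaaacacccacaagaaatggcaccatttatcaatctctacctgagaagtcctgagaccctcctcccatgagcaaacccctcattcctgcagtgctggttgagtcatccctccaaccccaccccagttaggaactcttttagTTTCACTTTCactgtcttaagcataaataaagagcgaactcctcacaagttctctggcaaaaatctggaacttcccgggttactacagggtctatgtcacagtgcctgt
Cxcl10 (chr5.0:92348840-92349139, minus strand): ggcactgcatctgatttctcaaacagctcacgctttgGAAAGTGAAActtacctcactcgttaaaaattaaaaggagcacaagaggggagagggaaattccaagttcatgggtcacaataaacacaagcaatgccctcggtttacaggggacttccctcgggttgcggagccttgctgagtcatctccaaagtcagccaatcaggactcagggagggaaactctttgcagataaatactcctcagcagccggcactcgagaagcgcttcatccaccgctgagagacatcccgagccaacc
Psmb8 (chr17.0:34197945-34198244, plus strand): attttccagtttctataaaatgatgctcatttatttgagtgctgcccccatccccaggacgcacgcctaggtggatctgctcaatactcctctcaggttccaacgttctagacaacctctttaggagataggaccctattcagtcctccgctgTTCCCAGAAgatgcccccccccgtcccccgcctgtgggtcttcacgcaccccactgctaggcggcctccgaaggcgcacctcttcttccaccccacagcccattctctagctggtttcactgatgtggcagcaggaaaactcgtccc

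In Igtp the 2 matches lie side by side, 45 and 34 bases before the start, without overlap. The match in Gbp2 lies 59 bases before the start and reads on the minus strand of the gene, that in Cxcl10 lies 213 bases before it, and that in Psmb8 lies 97 bases before it. Promoters were matched by symbol for 29 of the 38 lower-effect genes. The GAAA repeat occurred in 5 of the 29 (17.2%), against 3.49% of all 27025 RefSeq promoter windows, and TTCNNNGAA in 4 of the 29 (13.8%), against 8.47%. Of the 9 higher-effect genes, 5 had a window, and 1 of these held each motif. Igtp, Gbp2, Cxcl10, Saa3 and Psme1 were the 5 lower-effect genes with the GAAA repeat; the windows of Cxcl9, Tap1, Psmb9 and Ifi47 held neither motif. The windows of Tap1 and Psmb9, which are transcribed away from each other, share 275 of their 300 bases and are not independent. These are descriptions of letters within a window, and binding was not measured.

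Cxcl9 and Cxcl10 encode chemokines that draw T cells and natural killer cells through the receptor Cxcr3. For Cxcl9 the unexposed C57BL/6 arrays read 3.52, 4.25, 4.32, 4.14 and 3.27, and the 10 exposed arrays ran from 6.86 over a median of 7.44 to 8.86. In CD40L-KO the unexposed arrays read 3.86, 3.33, 3.13, 3.74 and 3.45, and the exposed arrays 3.50, 3.82, 4.28 and 3.83. The C57BL/6 groups were wide apart and the CD40L-KO groups overlapped near the floor. The difference was −3.29 ± 0.38 (SE, adjusted p 2.84e-05), from an effect of 3.64 in C57BL/6 and 0.35 (95% interval −0.26 to 0.96) in CD40L-KO.

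Cxcl10 gave the same picture at a lower level. Unexposed C57BL/6 arrays read 4.02, 4.08, 3.51, 4.00 and 3.16 and exposed ones 4.96 to 6.36, with a median of 5.32. The CD40L-KO arrays read 3.79, 3.22, 3.53, 3.56 and 3.87 unexposed and 3.74, 3.15, 3.98 and 4.06 exposed. The difference was −1.59 ± 0.34 (adjusted p 0.0289). The X-linked Cxcr3, which falls outside the autosomal rule, also differed, by −1.11 (adjusted p 0.0214). Ifng itself stayed close to the floor, between 3.07 and 4.52 over the 24 arrays, and its difference of −0.70 ± 0.32 did not pass (adjusted p 0.426).

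The cytosolic GTPases of the response, which act against intracellular microbes, followed. Igtp, an immunity-related GTPase, read 6.22, 5.79, 6.05, 6.57 and 6.33 in unexposed C57BL/6 and 7.57 to 8.94 (median 8.28) in exposed C57BL/6. Levels in CD40L-KO were 6.43, 6.64, 6.78, 6.48 and 5.97 unexposed and 5.89, 6.58, 6.50 and 6.97 exposed. The CD40L-KO groups overlapped, with 1 exposed array below all unexposed ones and 1 above, and the difference was −1.98 ± 0.32 (adjusted p 0.00235).

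Gbp2, a guanylate-binding protein, read 6.45, 7.59, 7.62, 7.85 and 7.68 in unexposed and 8.56 to 9.71 (median 9.05) in exposed C57BL/6. The CD40L-KO mice gave 7.84, 7.91, 8.11, 7.87 and 8.17 unexposed and 7.78, 8.06, 8.06 and 8.04 exposed, so the groups overlapped. Its difference was −1.63 ± 0.30 (adjusted p 0.00956), with a CD40L-KO effect of 0.003 (95% interval −0.47 to 0.47). The lowest unexposed C57BL/6 array, replicate 1, stands apart from the other 4 and also has the highest Gapdh ratio. Ifi47, another immunity-related GTPase, differed by −1.35 ± 0.26 (adjusted p 0.016).

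Of 28 measured interferon-gamma response genes, 17 rose in C57BL/6 and 8 had a lower effect in CD40L-KO: Cxcl9, Cxcl10, Igtp, Gbp2, Ifi47, Tap1, Psmb9 and Psmb8. The median effect of the list was 0.86 in C57BL/6 and 0.049 in CD40L-KO, against −0.012 and −0.011 over all autosomal genes. Gbp3 (−1.25, adjusted p 0.0665) and Iigp1 (−1.38, adjusted p 0.0829) missed the threshold for the difference. Of 16 type I interferon response genes, 5 rose in C57BL/6 and 0 differed between the strains, with 5 effects from 0.38 for Ifi204 to 0.67 for Ifi35.

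**Figure D3:**
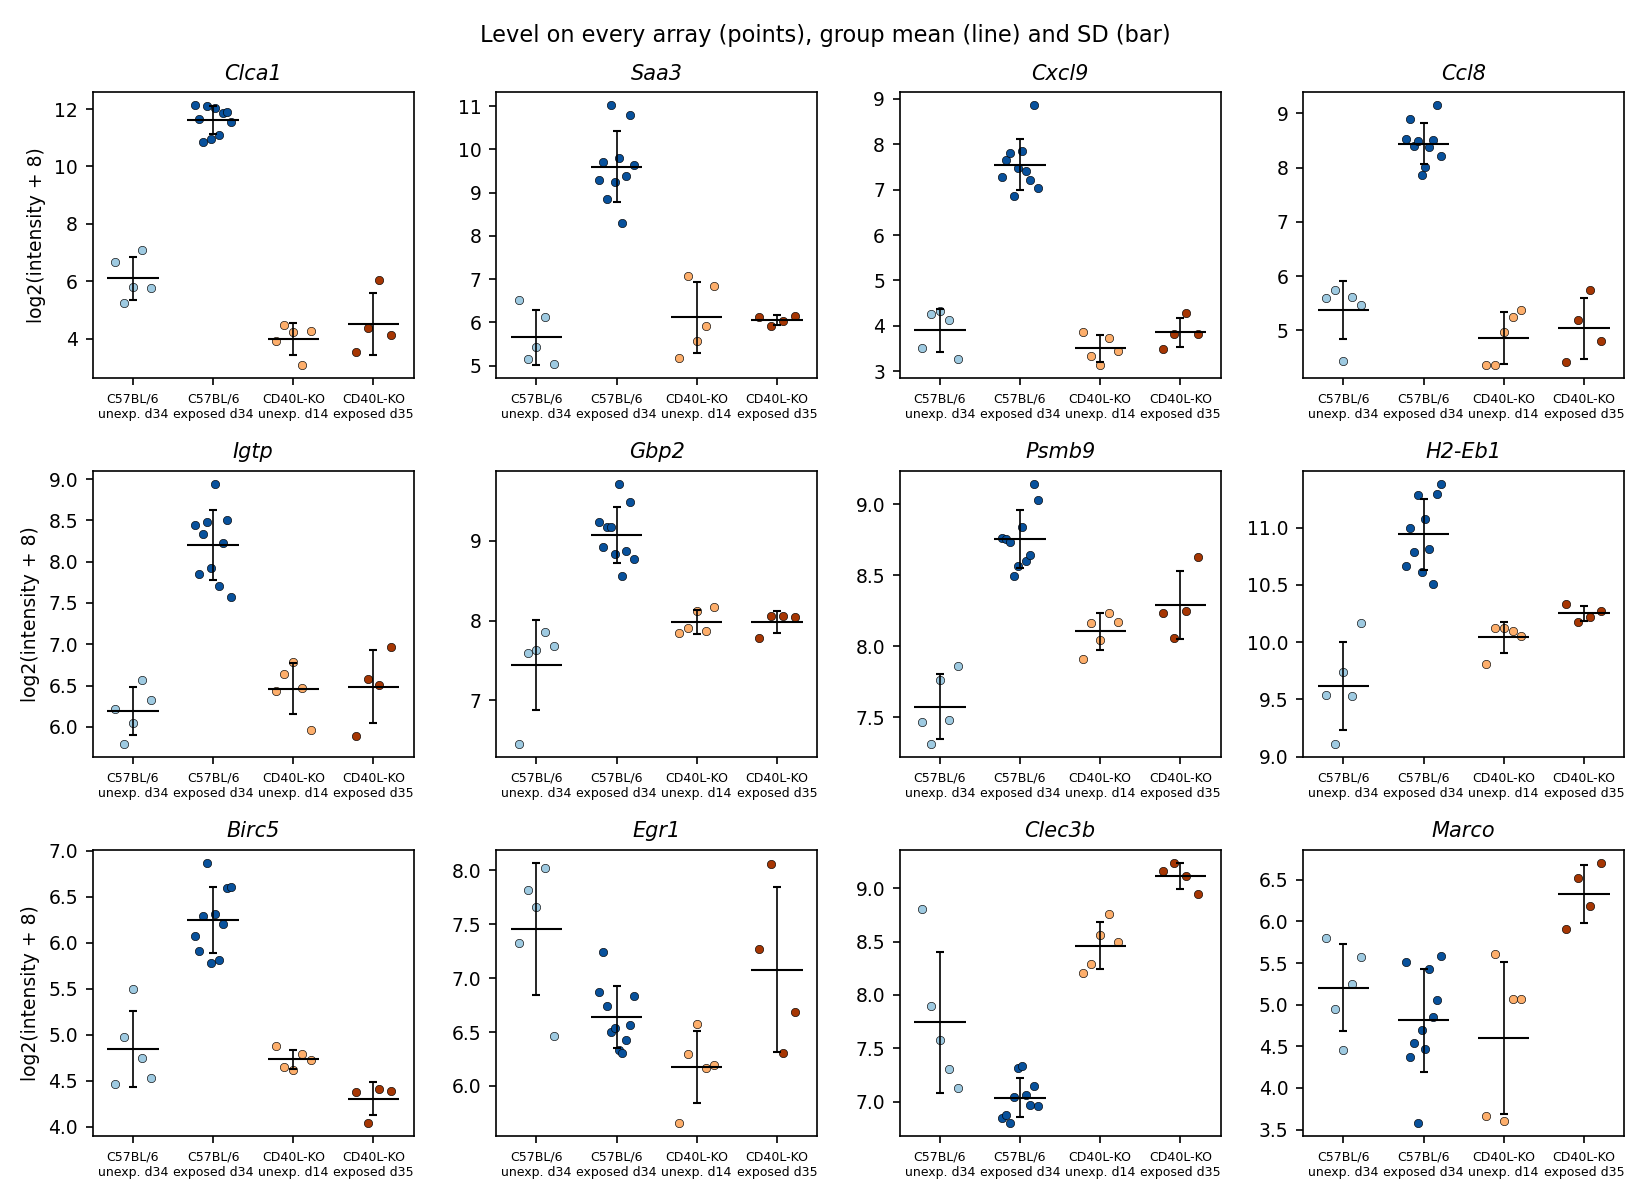
Level of 12 genes on every array (log2(intensity + 8), 1 point per array) in the 4 groups, with the group mean (line) and SD (bar). For Clca1, Saa3, Cxcl9, Ccl8, Igtp, Gbp2, Psmb9, H2-Eb1 and Birc5 every exposed C57BL/6 array lies above every unexposed C57BL/6 array; Marco is shown beside the 2 higher-effect genes Egr1 and Clec3b although its difference did not pass the threshold.

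Some antigen-processing genes, which share this control in textbook accounts, also differed, and most of these were counted in the interferon-gamma list above. Psmb9 and Psmb8 encode catalytic subunits of the immunoproteasome, which cuts peptides for class I molecules. Psmb9 read 7.46, 7.31, 7.76, 7.48 and 7.86 in unexposed and 8.49 to 9.14 (median 8.74) in exposed C57BL/6, and 7.91, 8.17, 8.05, 8.24 and 8.17 in unexposed and 8.24, 8.06, 8.25 and 8.63 in exposed CD40L-KO. All 5 unexposed CD40L-KO arrays lay above the 5 unexposed C57BL/6 arrays, by less than the C57BL/6 exposure effect. The difference was −0.995 ± 0.19 (adjusted p 0.0119) for Psmb9 and −0.93 ± 0.16 (adjusted p 0.0058) for Psmb8.

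Tap1, the transporter that carries peptides into the endoplasmic reticulum, read 7.23, 7.41, 7.59, 7.60 and 8.20 in unexposed and 8.47 to 9.52 (median 8.87) in exposed C57BL/6. In CD40L-KO it read 7.08, 7.16, 7.46, 7.45 and 7.47 unexposed and 7.33, 7.52, 7.27 and 7.67 exposed. Its difference was −1.21 ± 0.25 (adjusted p 0.0214). A dimmer second probe set of Tap1 (mean 4.26 against 8.08) gave a difference of 0.56. Psme1, a subunit of the proteasome activator, differed by −0.80 ± 0.17 (adjusted p 0.0282), and by 0.21 on a dimmer second probe set (mean 3.47 against 9.26). Of 13 measured class I and antigen-processing genes, 7 rose in C57BL/6 and these 4 differed, with medians of 0.60 in C57BL/6 and 0.11 in CD40L-KO. Psmb9, Psmb8 and Tap1 are also members of the interferon-gamma list, so the calls of the 2 lists overlap. H2-Q4 (−1.59, adjusted p 0.0439) and H2-D4 (−1.46, adjusted p 0.0318) are class I genes outside that list, and probes of this family can share near-identical copies, so their readings are uncertain.

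Class II genes present peptides to CD4 T cells. H2-Eb1, the class II E beta chain, read 9.54, 9.11, 9.74, 9.53 and 10.2 in unexposed and 10.5 to 11.4 (median 10.9) in exposed C57BL/6. Levels in CD40L-KO were 9.81, 10.1, 10.1, 10.1 and 10.1 unexposed and 10.3, 10.2, 10.2 and 10.3 exposed. The CD40L-KO groups did not overlap either, but the effect there was 0.21 (95% interval −0.17 to 0.59) against 1.33 in C57BL/6, a difference of −1.12 ± 0.24 (adjusted p 0.0282). Ifi30, the lysosomal thiol reductase that unfolds antigens, differed by −1.16 ± 0.25 (adjusted p 0.0313) and likewise had every exposed CD40L-KO array above the unexposed ones. Of 12 class II genes, 9 rose in C57BL/6 and these 2 differed, with medians of 0.74 and 0.24. The other 7 that rose in C57BL/6, among them H2-Ab1 (difference −1.05, adjusted p 0.103) and Cd74 (−0.33, adjusted p 0.505), did not pass for the difference. In a homogenate of whole lung, fewer cells of a type and less RNA per cell cannot be told apart.

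The largest difference of any autosomal gene was in Clca1, a secreted protein of mucus-producing goblet cells. Its unexposed C57BL/6 arrays read 6.67, 5.24, 5.79, 7.07 and 5.76, and the exposed ones 10.9 to 12.1 (median 11.8). The CD40L-KO arrays read 3.93, 4.48, 4.23, 3.08 and 4.26 unexposed and 3.54, 4.38, 6.05 and 4.11 exposed. Both CD40L-KO groups overlapped, and all 5 unexposed CD40L-KO arrays lay below the 5 unexposed C57BL/6 arrays. The effect was 5.51 in C57BL/6 and 0.53 (95% interval −0.33 to 1.38) in CD40L-KO, a difference of −4.98 ± 0.54 (adjusted p 1.44e-05). A dimmer second probe set of Clca1 (mean 4.20 against 7.70) gave a C57BL/6 effect of 0.59 and a difference of −0.49.

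Other goblet cell and mucus genes moved in C57BL/6 without passing for the difference. Of 12 measured, 6 rose there, with a list median of 1.14, against 0.12 in CD40L-KO. Tff2, a trefoil peptide that stabilises mucus, had a C57BL/6 effect of 1.99 and a CD40L-KO effect of 0.26, and its difference of −1.72 ± 0.58 had an adjusted p of 0.226. Agr2, needed for mucin folding, had effects of 1.72 and 0.29 (difference adjusted p 0.408). Pigr, the receptor that carries IgA across epithelium, had effects of 1.09 and 0.17 (difference adjusted p 0.159). Clca1 was thus the 1 gene of the list past the threshold.

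A pair of acute phase proteins differed. Saa3, the serum amyloid A that macrophages and epithelium make during inflammation, read 6.51, 5.14, 5.43, 6.12 and 5.05 in unexposed and 8.29 to 11.0 (median 9.51) in exposed C57BL/6. The CD40L-KO mice gave 5.17, 7.07, 5.57, 5.92 and 6.85 unexposed and 6.13, 5.92, 6.03 and 6.15 exposed, all 4 exposed arrays within the unexposed range. The difference was −4.01 ± 0.57 (adjusted p 0.000596).

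Lcn2, a lipocalin that binds bacterial iron carriers, started from another level in CD40L-KO. Unexposed C57BL/6 arrays read 6.53, 7.24, 8.00, 7.23 and 7.94 and exposed ones 9.35 to 11.3 (median 10.1). The CD40L-KO arrays read 8.81, 9.82, 8.72, 9.35 and 9.85 unexposed and 9.71, 9.98, 9.88 and 10.1 exposed. Every unexposed CD40L-KO array lay above every unexposed C57BL/6 array, and the exposed arrays of both strains overlapped. The difference in effect, −2.25 ± 0.46 (adjusted p 0.0214), came with similar exposed levels. A dimmer second probe set of Lcn2 (mean 5.45 against 9.40) gave a difference of 0.20. Of 12 acute phase genes, 4 rose in C57BL/6 and these 2 differed.

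Such differences in the unexposed level were not limited to Lcn2. For 10 of the 38 lower-effect genes, every unexposed CD40L-KO array lay above every unexposed C57BL/6 array, which holds for 11.3% of all autosomal genes. These were Chia1, H2-D4, H2-Q4, Lcn2, Lsm4, Mtx2, Ntsr2, Psmb9, Psme1 and Vcam1. For 26 of the 38, every exposed CD40L-KO array lay below every exposed C57BL/6 array, against 14.4% of all genes; of the 10 just named, none did. As the strains were hybridised from different experiments, these levels set side by side carry strain and experiment together. The same arrays also picked the 38 genes, so these counts add no separate evidence.

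CC chemokines, some of which recruit monocytes through Ccr2, made up another set. Ccl8 read 5.59, 5.75, 4.43, 5.62 and 5.47 in unexposed and 7.87 to 9.16 (median 8.45) in exposed C57BL/6. In CD40L-KO it read 4.37, 4.36, 4.97, 5.24 and 5.38 unexposed and 4.41, 5.20, 5.74 and 4.80 exposed. The CD40L-KO groups overlapped, and the difference was −2.90 ± 0.38 (adjusted p 0.000162).

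Ccl2 and Ccl7, neighbours of Ccl8 in the same gene cluster, differed too. Ccl2 read 4.59, 5.05, 4.88, 5.23 and 4.44 in unexposed and 6.13 to 7.80 (median 6.69) in exposed C57BL/6, and 4.52, 5.24, 4.05, 4.48 and 5.03 in unexposed and 4.44, 4.92, 4.72 and 5.13 in exposed CD40L-KO. Its difference was −1.75 ± 0.36 (adjusted p 0.0214), and that of Ccl7 was −1.49 ± 0.31 (adjusted p 0.0228). Of 14 measured CC chemokines and receptors, 7 rose in C57BL/6 and these 3 differed. Ccl9 had a C57BL/6 effect of 2.32 and a CD40L-KO effect of 1.05 (95% interval 0.26 to 1.84), the highest CD40L-KO effect among the 306 genes that rose in C57BL/6, and its difference did not pass (adjusted p 0.313). Of 19 neutrophil chemokines and products, 3 rose in C57BL/6 and 0 differed; Cxcl5 had a difference of −1.67 (adjusted p 0.11) and S100a8 one of 1.20 (adjusted p 0.206).

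Macrophage genes rose in C57BL/6 in number, and 0 of 30 were called for the difference, against 0.59% of all genes. Their differences were negative for 21 and positive for 9, so the missed calls do not show equal effects. Of the 30 genes, 12 rose in C57BL/6, against 3.84% of all genes. Among these were Cd68, a lysosomal macrophage marker (C57BL/6 effect 0.82, CD40L-KO effect 0.36), and Aif1 (1.33 and 0.047). Mmp12, the macrophage elastase, had effects of 2.38 and 0.16, and its difference of −2.23 ± 0.87 had an adjusted p of 0.316. The scavenger receptor Marco went the other way. It read 5.79, 4.95, 4.46, 5.25 and 5.57 in unexposed and 3.58 to 5.59 (median 4.78) in exposed C57BL/6. Levels in CD40L-KO were 3.66, 5.61, 3.60, 5.07 and 5.07 unexposed and 5.91, 6.53, 6.18 and 6.70 exposed, all above the unexposed arrays. Its CD40L-KO effect of 1.73 was the highest of all autosomal genes, yet it did not pass there (adjusted p 0.499), and its difference of 2.12 ± 0.51 missed the threshold (adjusted p 0.0565).

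Genes of the chitinase family and of complement C1q also rose in C57BL/6. Chil3, also called Ym1, read 10.6, 10.4, 10.0, 9.95 and 10.5 in unexposed and 11.0 to 12.2 (median 11.8) in exposed C57BL/6. The CD40L-KO mice gave 10.3, 10.9, 10.5, 10.7 and 10.7 unexposed and 10.9, 11.0, 11.0 and 11.0 exposed. Exposed arrays lay above unexposed ones in both strains, by 1.46 in C57BL/6 and 0.34 (95% interval −0.046 to 0.73) in CD40L-KO, a difference of −1.13 ± 0.24 (adjusted p 0.0282). Chia1, the acidic chitinase, differed by −1.85 ± 0.43 (adjusted p 0.0422) from unexposed levels of 6.25 to 7.66 in C57BL/6 and 8.15 to 9.21 in CD40L-KO, where the exposed arrays read 8.26 to 8.65. C1qb, a chain of the first complement component, differed by −1.44 ± 0.32 (adjusted p 0.0364). A dimmer second probe set of C1qb (mean 5.21 against 7.96) gave a difference of −0.43. C1qa (−1.29, adjusted p 0.108) and C1qc (−0.99, adjusted p 0.235) rose in C57BL/6 without passing for the difference.

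Genes of cell division rose in C57BL/6. Of 40 measured cell cycle genes, 15 rose, and 5 had a lower effect in CD40L-KO: Birc5, Mki67, Rrm2, Ttk and Prc1. The median effect was 0.50 in C57BL/6 and −0.044 in CD40L-KO. Birc5, a subunit of the chromosomal passenger complex, read 4.47, 4.98, 5.49, 4.75 and 4.53 in unexposed and 5.78 to 6.86 (median 6.25) in exposed C57BL/6. In CD40L-KO it read 4.88, 4.66, 4.62, 4.79 and 4.72 unexposed and 4.38, 4.04, 4.41 and 4.39 exposed, so that the exposed arrays lay below the unexposed ones. Its difference was −1.83 ± 0.27 (adjusted p 0.000644), with a CD40L-KO effect of −0.43 whose 95% interval ends at 0.

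Mki67, the proliferation marker, read 4.99, 5.24, 4.78, 4.96 and 4.93 in unexposed and 5.99 to 6.79 (median 6.29) in exposed C57BL/6, and 4.59, 4.92, 4.39, 4.82 and 4.32 in unexposed and 4.94, 4.58, 4.83 and 4.98 in exposed CD40L-KO. Its difference was −1.15 ± 0.20 (adjusted p 0.00778). A second probe set of Mki67, with a mean of 4.72 against 5.45, gave a difference of −0.00036, so the 2 probe sets disagree. Outside the list, Cks1b, which activates cyclin-dependent kinases, differed by −1.54 (adjusted p 0.0371), the histone variant gene H2ax by −1.16 (adjusted p 0.0214) and the chromosome-binding kinesin gene Kif22 by −1.12 (adjusted p 0.0214). Ttk lies among the dimmest of the called genes, and its levels ran from 3.13 to 4.77 over all arrays.

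Of 25 T cell genes, 7 rose in C57BL/6, against 3.84% of all genes. They included Cd3d (0.66), Cd3e (1.24), Cd3g (0.79) and the costimulators Icos (1.07) and Tnfrsf4 (1.33). For the difference, where 0.59% of all genes were called, 1 of the 25 was called. This was Cd6, a T cell surface receptor, which read 4.53, 4.05, 4.90, 4.39 and 5.15 in unexposed and 5.21 to 5.83 (median 5.56) in exposed C57BL/6. Levels in CD40L-KO were 5.27, 5.32, 5.33, 5.35 and 5.08 unexposed and 5.22, 5.28, 5.02 and 5.26 exposed. Its difference was −1.01 ± 0.22 (adjusted p 0.028), with both CD40L-KO groups partly inside and partly below the exposed C57BL/6 range. It was −0.49 (adjusted p 0.609) without the arrays of squamous score above 6 and −0.098 (adjusted p 0.833) with the unexposed CD40L-KO mice of day 32, and was called in 7 of 15 alternatives. A second probe set of Cd6, with a mean of 4.64 against 5.23, gave a difference of 0.050. Of 18 cytotoxic and natural killer genes, 0 changed in C57BL/6 and 0 differed.

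No B cell or antibody gene was called for the difference at day 34, in contrast to the arrays of day 41 described at the end. Of 18 B cell genes, Cd72 rose and Cd79a, Cd79b and Blk fell in C57BL/6, and 0 differed. Igha, the IgA heavy chain, had a C57BL/6 effect of 0.67 and a CD40L-KO effect of 0.069, a difference of −0.60 (95% interval −1.62 to 0.42). Jchain, which joins IgA and IgM into polymers, had a difference of −0.58 (95% interval −1.87 to 0.71). Among 30 genes of CD40 signalling, Traf1, Nfkb2, Relb and Nfkbia rose in C57BL/6 and 0 differed. Cd40 itself had a C57BL/6 effect of 0.080 and a CD40L-KO effect of 0.048, and the difference was −0.032 (95% interval −0.46 to 0.40). Relb, the partner of Nfkb2 in the pathway downstream of CD40, had effects of 0.76 and −0.15 and a difference of −0.91 (adjusted p 0.235). Of 11 lymphoid-tissue chemokines and receptors, 0 changed in C57BL/6 and 0 differed.

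**Figure D4:**
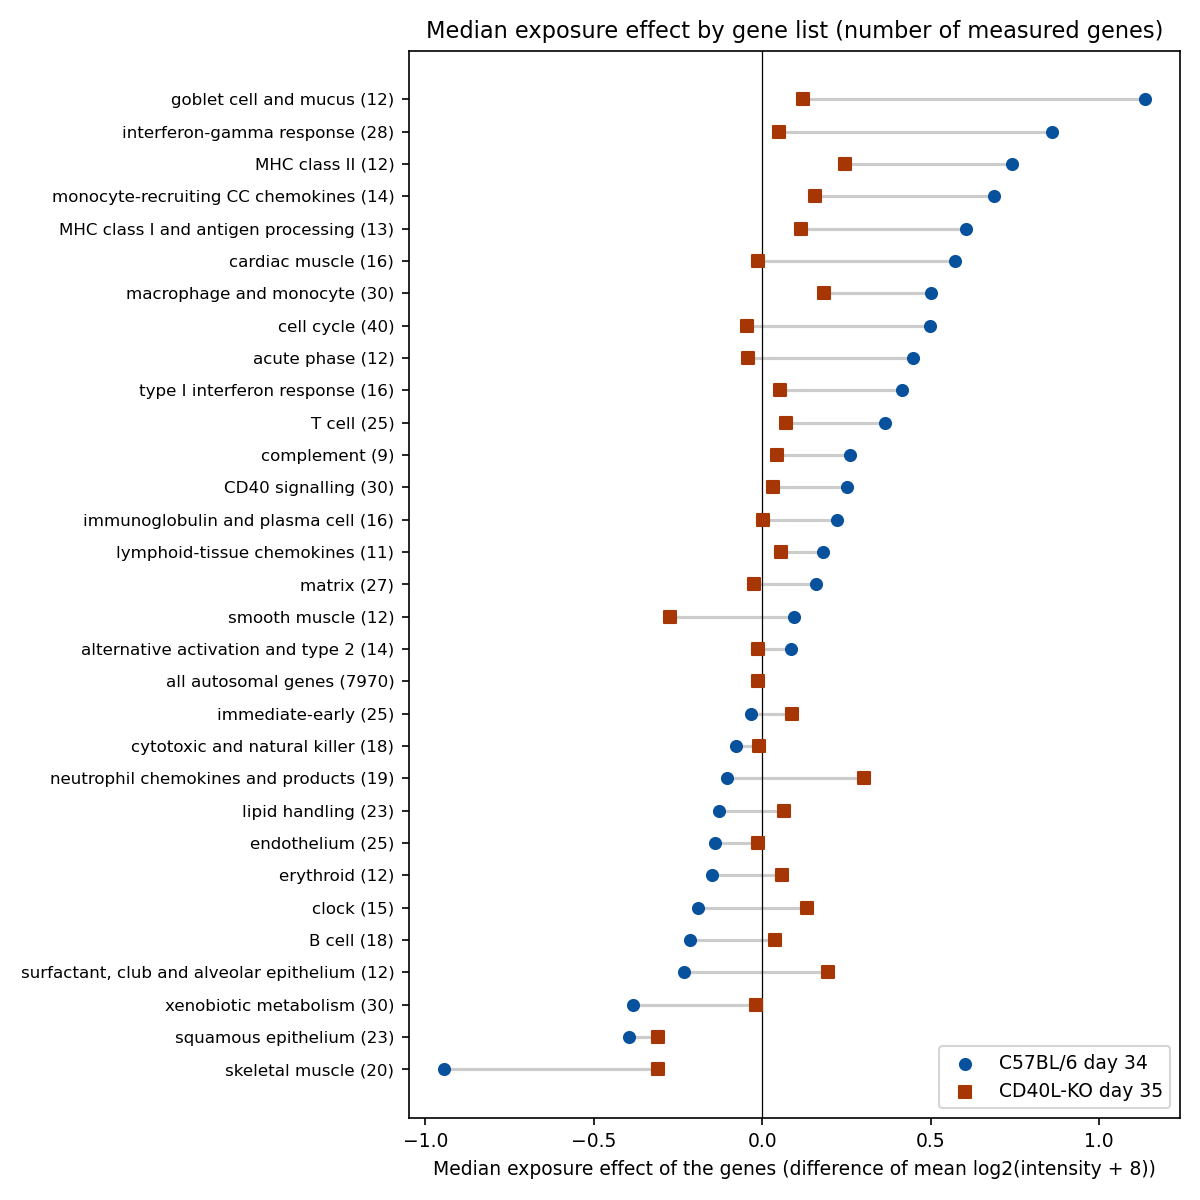
Median exposure effect (difference of mean log2(intensity + 8)) of 30 gene lists and of all autosomal genes, in C57BL/6 at day 34 (circles) and CD40L-KO at day 35 (squares), with the number of measured genes after each name. Goblet cell and mucus genes show the highest C57BL/6 median, 1.14, against 0.12 in CD40L-KO; interferon-gamma response genes show 0.86 against 0.049.

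The remaining lower-effect genes have varied roles. Vcam1, the adhesion molecule that activated endothelium shows to leukocytes, differed by −0.81 (adjusted p 0.0422) and was the 1 call among 25 endothelial genes. Mvd, an enzyme of cholesterol synthesis, differed by −1.43 (adjusted p 0.0295), Lsm4, of the spliceosome, by −0.75 (adjusted p 0.0313), the neurotensin receptor gene Ntsr2 by −1.17 (adjusted p 0.016) and Mtx2, of mitochondrial protein import, by −0.60 (adjusted p 0.0471). AW112010 (−1.01, adjusted p 0.0189) and Gm9706 (−1.10, adjusted p 0.0119) complete the 38. For Mtx2 and Ntsr2 the unexposed CD40L-KO arrays lay above the unexposed C57BL/6 arrays, at 6.89 to 7.17 against 6.00 to 6.40 for Mtx2.

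The 9 higher-effect genes fell or had negative values in C57BL/6 and had positive values in CD40L-KO. Their C57BL/6 effects ran from −0.85 to −0.45, with 7 called lower, and their CD40L-KO effects from 0.18 to 0.90, with 0 called. Clec3b, which encodes the plasminogen-binding protein tetranectin, read 8.80, 7.90, 7.58, 7.30 and 7.13 in unexposed and 6.80 to 7.33 (median 7.01) in exposed C57BL/6, groups that overlapped. The CD40L-KO mice gave 8.21, 8.29, 8.56, 8.76 and 8.49 unexposed and 9.16, 9.24, 9.11 and 8.94 exposed, groups that did not. Its difference was 1.36 ± 0.28 (adjusted p 0.0232). The highest unexposed C57BL/6 array was replicate 1, the array of the highest Gapdh ratio.

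Ogn, a small leucine-rich proteoglycan of the matrix, read 9.57, 9.90, 9.76, 9.49 and 9.67 in unexposed and 8.40 to 9.22 (median 8.84) in exposed C57BL/6, without overlap. In CD40L-KO it read 9.36, 8.93, 9.41, 9.36 and 8.83 unexposed and 9.36, 9.23, 9.45 and 9.49 exposed, with overlap. Its difference was 1.05 ± 0.19 (adjusted p 0.0099). A second probe set of Ogn, of similar brightness (mean 8.54 against 9.17), gave a difference of 0.03, so the 2 probe sets disagree.

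Egr1, an immediate-early transcription factor, read 7.33, 7.81, 7.66, 8.02 and 6.46 in unexposed and 6.31 to 7.24 (median 6.55) in exposed C57BL/6. Levels in CD40L-KO were 5.66, 6.29, 6.58, 6.17 and 6.19 unexposed and 7.27, 8.06, 6.30 and 6.68 exposed. Groups overlapped in both strains, and the difference was 1.72 ± 0.38 (adjusted p 0.032). It was 0.56 (adjusted p 0.824) without the arrays of squamous score above 6 and 0.79 (adjusted p 0.277) with the unexposed CD40L-KO mice of day 32, and was called in 7 of 15 alternatives. It was the 1 call among 25 immediate-early genes. The endothelial factors Sox7 (difference 0.76, adjusted p 0.0471) and Angpt2, a ligand of the Tie2 receptor (0.66, adjusted p 0.0471), had every exposed C57BL/6 array below the unexposed ones, as did Ogn, a pattern found for 0.326% of all genes. Ahnak (0.88, adjusted p 0.0291), Igsf10 (0.91, adjusted p 0.0343), the farnesyltransferase gene Fntb (1.34, adjusted p 0.034) and the phosphodiesterase gene Pde1c (1.14, adjusted p 0.0318) complete the 9. Fntb and Pde1c lay at 3.09 to 5.21 over the 24 arrays, near the floor. The Igsf10 difference was −0.80 with the unexposed CD40L-KO mice of day 32, a call in the opposite direction.

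Genes of detoxification, an activity of club cells, fell in C57BL/6 but gave no call for the difference. Of 30 xenobiotic-metabolising genes, 11 fell in C57BL/6, among them Cyp1a1 (−1.28), Gsta4 (−1.28) and Gstm1 (−0.51), and 0 differed between the strains. Their CD40L-KO effects were −0.43, 0.084 and 0.077, and the differences had adjusted p of 0.355, 0.187 and 0.192. The list medians were −0.38 in C57BL/6 and −0.018 in CD40L-KO. Of 12 surfactant, club and alveolar epithelial genes, 1 fell in C57BL/6 (Hopx) and 0 differed. Among the marker transcripts of other tissues, Sprr1b, a cornified envelope protein of squamous epithelium, fell in C57BL/6 by 0.70 (adjusted p 0.0332), and its difference of 1.04 ± 0.31 was not called (adjusted p 0.142). Most of these markers varied widely between arrays: the difference was 1.33 with an interval of −2.34 to 5.01 for Krt4 and 1.63 with an interval of −3.77 to 7.02 for Acta1, and 0 of 23 squamous and 0 of 20 skeletal muscle genes were called for the difference. Among lists not yet described, 2 of 23 lipid handling genes, 2 of 15 clock genes (Clock and Cry1) and 1 of 27 matrix genes fell in C57BL/6, none of these lists holding a call for the difference, and 0 of 12 smooth muscle, 0 of 16 cardiac muscle and 0 of 12 erythroid genes passed in C57BL/6 or in the difference. In the list of 16 immunoglobulin and plasma cell genes, Pigr and Creld2 rose in C57BL/6 and 0 differed. The part of other tissues in the other results was not tested beyond the fits with and without those arrays.

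The C57BL/6 responses could also be followed in CD40L-KO as a whole set, since these 2 effects share no arrays. The 306 genes that rose hold the 38 lower-effect genes, and the 133 that fell hold 7 higher-effect genes. Those were picked in part by their CD40L-KO values, so the shares and medians that follow are not separate from the 47 genes. Of the 306 genes that rose in C57BL/6, 196 (64.1%) had a positive CD40L-KO effect, against 47.3% of all autosomal genes. Their median effect was 0.72 in C57BL/6 and 0.068 in CD40L-KO, and 21 of the 306 had a CD40L-KO effect of at least 50% of the C57BL/6 one. Of the 133 genes that fell, 55 (41.4%) had a negative CD40L-KO effect, against 52.7% of all genes, and the medians were −0.57 and 0.035. By the medians, the genes that rose thus had small positive values in CD40L-KO, and those that fell had values near 0. The CD40L-KO effects of single genes lay on both sides of 0. They ran from −0.43 to 1.05 for the genes that rose and from −0.75 to 0.90 for those that fell.

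The same difference could be read on the separate arrays of day 32, from experiment 1, in which both strains shared cages. That set holds 3 exposed and 2 unexposed C57BL/6 arrays and 3 exposed and 3 unexposed CD40L-KO arrays, and its CD40L-KO mice are already described in the study design as little changed, so it is given as values without a test. Of the 38 lower-effect genes, 36 had a negative difference at day 32, against 43.5% of all autosomal genes, with a median of −1.50. Clca1 stood at −5.24, Saa3 at −5.58, Cxcl9 at −3.81, Ccl8 at −3.05 and Ccl2 at −4.22. The exceptions were Ntsr2 (0.20) and Mtx2 (0.51). Of the 9 higher-effect genes, 8 had a positive difference, against 56.5% of all genes, with Ogn at 1.88, and Egr1 was the exception at −0.64. H2-Q4 and H2-D4 were smaller at day 32, at −0.32 and −0.08. Markers of other tissues varied on these arrays too. The CD40L-KO effect was −2.36 ± 1.56 for Krt4, −3.84 ± 2.19 for Acta1 and −2.55 ± 0.70 for the skeletal muscle gene Ckm. In C57BL/6 these effects were 0.017 ± 1.74, −2.66 ± 2.45 and −1.02 ± 0.79. The part of such tissue in the day 32 values was not tested.

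**Figure D5:**
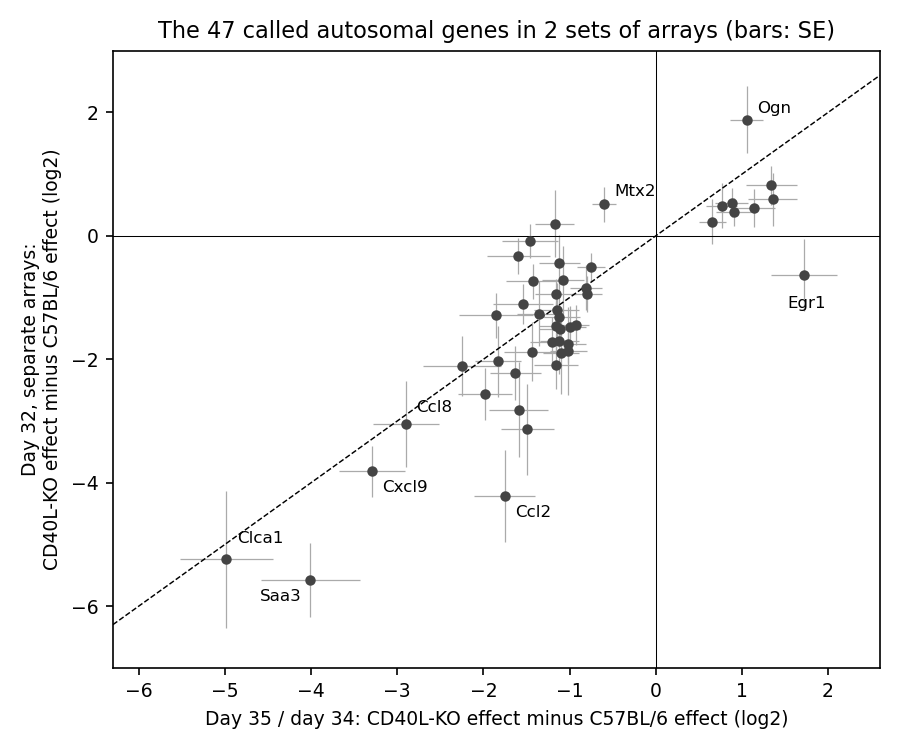
Difference of exposure effects (CD40L-KO minus C57BL/6, log2) of the 47 called autosomal genes at day 35 and day 34 (x axis) against separate arrays of day 32 (y axis), 1 point per gene with SE bars; the dashed line marks equal values. Clca1 is at −4.98 and −5.24 and Cxcl9 at −3.29 and −3.81, while Mtx2 and Egr1 change sign.

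The C57BL/6 side of the comparison gave other values on the arrays of another day. On the C57BL/6 arrays of day 41, with 10 exposed and 5 unexposed mice of the same experiment, the median effect of the 38 genes was 0.47, against 1.33 at day 34. Set against the same CD40L-KO arrays, 15 genes differed (0.188%) and none of these was among the 47, although all 47 kept the direction. Of the 15, 8 are immunoglobulin genes or Jchain, all with a lower effect in CD40L-KO. Igha differed by −2.39 ± 0.40 (adjusted p 0.00516), from a C57BL/6 effect of 2.46, and Jchain by −2.39 ± 0.34 (adjusted p 0.00149), from a C57BL/6 effect of 2.00, against C57BL/6 effects of 0.67 and 0.18 at day 34. The other 6 were variable segments of the heavy chain and the kappa light chain, with differences from −3.72 to −1.28, whose probes can share near-identical copies, so which segment was read is uncertain. The remaining 7 were Adck1, Rgr and Tgif2, with a lower effect in CD40L-KO, and Cavin1, Nfic, Lgals4 and the clock gene Nr1d1, with a higher one. Clca1 had a day 41 effect of 3.60, Cxcl9 of 2.11, Ccl8 of 2.10 and Saa3 of 1.81. Igtp (0.62), Gbp2 (0.45) and Psmb9 (0.35) were lower there than their day 34 effects of 2.01, 1.63 and 1.18. The 2 C57BL/6 days share no arrays with each other, but both differences share the CD40L-KO arrays, and the change between days was not tested. Marker transcripts of other tissues differed between the days too. The C57BL/6 effects of Krt4 and Acta1 were −2.67 ± 1.13 and −2.82 ± 1.66 at day 34. At day 41 they were −0.23 ± 0.58 and 0.77 ± 1.08. Day and such tissue cannot be told apart here. Genes of the day 41 fit were named after their values were seen.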

How the data were processed

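Lung RNA from 95 mice was measured on 1-colour Affymetrix arrays with 12487 probe sets. The values deposited by the authors are linear intensity readings, 1 per probe set and array; the sources used here do not name how probes were summarised. Their trimmed mean (2% off each end) was 100.0 on every array, so arrays had been scaled, and median intensity ran from 35.5 to 46.2 over the 24 arrays used. Depth does not apply, and the number of arrays limits the precision.

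An offset of 8 was added and log2 taken. Of the probe sets, 10855 carry 1 gene symbol, 396 several and 1236 none in the platform annotation; those with 1 symbol gave 8252 genes, each by its brightest probe set, and RefSeq (GRCm38.p6) placed 7970 on autosomes. limma (3.58.1, in R 4.3.3) was fitted to the 4 group means of 24 arrays, with Benjamini-Hochberg adjustment over all 8252 genes and a threshold of 0.05. By rule, the genes named were the 14 most negative and 10 most positive called differences among genes brighter than the median gene, up to 4 called members of each of 30 gene lists or else the 2 of smallest p, and a short list of fixed names; the other called genes, list members that changed in C57BL/6, Marco, Ccl9 and the promoters shown were chosen after their values were seen. The genes compared and the lists were chosen with earlier results of these data known.

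Tested on simulated data with the arrays' own spread, the difference was called for 29 of 50 genes changed by 1, 46 of 50 changed by 2, 50 of 50 changed by 3 and 50 of 50 changed by 4 on the log2 scale, with 13 false calls among 8052 genes. The simulated noise was independent between genes, without shifts shared across an array, such as those of squamous tissue or RNA quality. These rates therefore do not measure the error that such shifts bring to the real data. Alternatives covered the offset, dim genes, normalization, probe sets, array weights, covariates, other control groups and each array left out. No pair of arrays held identical values, and array correlations ran from 0.818 to 0.983.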

Additional observations from a re-analysis of the deposited data

Results flagged for a closer look

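The exposure effects of 47 autosomal genes differed between CD40L-KO at day 35 and C57BL/6 at day 34 by the limma test of the difference itself, and these are the genes described above. X-linked Cxcr3, outside the autosomal rule, differed by −1.11. On 9 of the 24 arrays labelled female, all of them CD40L-KO, Y-linked Eif2s3y was above Xist.

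Among the 47 genes, 188 gene and group combinations were tested for a single array far from the rest, and 17 were flagged (9.04%); chance flags about 1 in 20. Of the unexposed C57BL/6 arrays, replicate 1 stood low for Cks1b (4.50), Gbp2 (6.45), Mtx2 (6.00) and Vcam1 (6.89) and high for Rrm2 (5.62), replicate 3 stood low for Ccl8 (4.43) and replicate 5 high for Mvd (5.97). Replicate 1 also carries the highest Gapdh 3′ to 5′ ratio, 4.39, and its part in these values was not tested. Of the exposed C57BL/6 arrays, replicate 9 stood high for Cxcl9 (8.86), replicate 2 low for Lsm4 (7.42) and replicate 8 high for Mtx2 (6.90). Of the unexposed CD40L-KO arrays, replicate 2 stood low for H2-D4 (7.29) and replicate 1 low for H2-Eb1 (9.81). Of the exposed CD40L-KO arrays, replicate 2 stood low for Birc5 (4.04) and Cks1b (5.36), replicate 1 low for Gbp2 (7.78), replicate 3 high for H2-D4 (7.45) and replicate 4 high for Psmb8 (9.11).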

How the results depend on the processing

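Of the 47 genes, 45 kept their direction under every alternative run for them (16 for 26 genes and 15 for the 21 left out of the fit of genes above 7) and with each of 24 arrays left out; the exceptions, Igsf10 (−0.80) and Mtx2 (0.16), reversed with the unexposed CD40L-KO mice of day 32 in place of those labelled day 14, as did Chga (−0.97), Ifi204 (2.04) and Ifit3 (0.85) among genes not called. That group comes from another experiment and may also carry transcripts of other tissues, whose part was not tested. With it the counts were 1239 for the difference and 1831 for CD40L-KO. The 1239 hold 32 of the 47, with Igsf10 among these 32 in the opposite direction. For the difference, the count of 47 became 311 (all 47 among them) in 1 fit of all 95 arrays, 115 (46 of the 47) with array weights, 19 (17 of the 47) with the Gapdh ratio as a covariate, 15 (0 of the 47) with C57BL/6 of day 41, 11 (9 of the 47) and 4 (3 of the 47) without arrays of squamous score above 7 and above 6, 56 (19 of the 47) with unexposed C57BL/6 of days 34 and 41 pooled without squamous arrays, and 13 to 86 with 1 array left out. Among unexposed arrays, omitting C57BL/6 replicate 2 gave 29 and replicate 5 gave 86, and omitting CD40L-KO replicates 2, 3 and 5 gave 21, 28 and 19. Omitting the exposed CD40L-KO replicates 1 to 4 gave 13, 19, 29 and 26. For C57BL/6, the count of 439 became 1246 in the fit of all arrays, 151 with day 41, 160 with the Gapdh ratio, 85 and 10 without arrays of high squamous score, and 273 (without unexposed replicate 2) to 929 (without unexposed replicate 5) with 1 array left out. For CD40L-KO, the count of 0 became 20 in the fit of all arrays, 7 with day 41 and 11 with array weights, and was 0 to 0 with 1 array left out. The replicate block gave 14 (13 of the 47) for the difference and 210 for C57BL/6. With group means removed, same-numbered arrays of different groups correlated from −0.207 to 0.519. Differently numbered arrays were not compared, so whether the numbers pair the mice was not tested. The causes of these changes were not tested beyond the fewer arrays or the shared spread that an alternative brings by construction. The limits are the single unexposed C57BL/6 cage and the confounding of strain with experiment, day and sex by transcript. Another limit is that 11 called genes have other probe sets. Of these 11, 5 had the same sign on every probe set, but Mki67 (−0.00036) and Ogn (0.032) were near 0 on the other one. Clca1 (−0.49) and C1qb (−0.43) were smaller there than on the probe set used. The sign was opposite for Cd6 (0.050), H2-D4 (0.37), Lcn2 (0.20), Psme1 (0.21), Tap1 (0.56) and Egr1 (−0.66). The other probe sets were dimmer for all 11, with means from 3.40 to 8.54. For Cd6 (4.64 against 5.23) and Mki67 (4.72 against 5.45) the means were close.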
